A study of Mus musculus with 19 samples.

Results

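RecQ helicases and the enzymes that take recombination junctions apart were followed in the embryonic mouse cortex as 10 genes chosen by name: the dissolvasome genes Blm, Top3a, Rmi1 and Rmi2, the other RecQ helicases Wrn, Recql and Recql5, and the junction nuclease genes Mus81, Gen1 and Slx4. All 10 were among the 51912 genes counted in each library, and all 10 passed the filter on low counts in each comparison. Libraries were made from E13.5 neocortex, 1 per embryo, on a mixed C57BL/6 and 129 background. The 7 ctrl embryos were labelled as controls with no alleles named, the 5 cKO-E embryos were Emx1 Cre/+;Ino80 fl/fl, and the 7 dKO-E embryos carried the same alleles together with Trp53 fl/fl. INO80 is the ATPase of a chromatin remodeler, and Trp53 encodes p53. Emx1 Cre recombines in cortical progenitors and is inherited by their excitatory neurons and astrocytes, so interneurons, microglia and vessel cells in the same tissue keep the floxed genes. The comparisons address how RNA of these genes differed after Ino80 deletion, with and without Trp53. Each mutant was compared with the same 7 ctrl embryos, so the values against ctrl are not independent of each other.

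RecQ helicases unwind DNA structures such as D-loops, forks and G-quadruplexes. When homologous recombination leaves a pair of duplexes joined by a double Holliday junction, BLM pushes the junctions together and topoisomerase IIIα with RMI1 and RMI2 decatenates them, which gives products without crossing over. Junctions that escape this route are cut by MUS81 with EME1, by GEN1, or by the SLX1 nuclease, for which SLX4 is the scaffold. These activities are used most in cells that replicate DNA, and the E13.5 cortex is rich in dividing progenitors.

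The 4 RecQ helicases share an ATPase motor, of which the DExH box is a signature. It is shown here for the RNAs that the counts measured, as 78 bases (26 codons) of the longest open reading frame of each gene in GENCODE M21, with the 4 codons of the box in capitals:
Blm: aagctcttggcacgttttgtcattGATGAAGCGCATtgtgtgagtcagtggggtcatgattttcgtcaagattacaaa
Wrn: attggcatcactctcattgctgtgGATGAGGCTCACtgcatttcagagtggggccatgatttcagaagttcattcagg
Recql: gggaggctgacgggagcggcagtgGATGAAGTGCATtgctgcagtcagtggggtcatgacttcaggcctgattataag
Recql5: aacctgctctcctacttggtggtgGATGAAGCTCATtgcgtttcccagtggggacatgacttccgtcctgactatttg
Base identity in this stretch ranged from 51.3% between Blm and Wrn to 62.8% between Recql5 and either Blm or Recql, so the 4 RNAs differed at many bases even here. RefSeq promoter windows on GRCm38.p6, from 250 bases before to 50 after a start, were available for 7 of the 10 genes, in 9 windows. Wrn, Top3a and Rmi2 had no entry. Blm is shown as the member with the highest CPM, and Recql and Gen1 because each starts head to head with another gene and the bases shown fill the gap between the annotated exons. Each is the part of the window outside any GENCODE M21 exon, 5′ to 3′ on the strand of the member, which is the minus strand in these 3 genes:
Blm (chr7:80535120-80535248): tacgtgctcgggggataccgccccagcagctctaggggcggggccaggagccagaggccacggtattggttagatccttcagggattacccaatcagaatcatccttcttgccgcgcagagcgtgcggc
Recql (chr6:142387088-142387220): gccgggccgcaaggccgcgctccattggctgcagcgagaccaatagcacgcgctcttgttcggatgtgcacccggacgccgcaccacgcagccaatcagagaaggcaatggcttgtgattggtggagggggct
Gen1 (chr12:11265802-11265885): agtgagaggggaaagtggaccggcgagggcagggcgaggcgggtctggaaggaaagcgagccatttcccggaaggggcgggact
No capitals stand in these 3 because neither motif searched occurred in them. GCCATNTT, the core of the YY1 motif, was searched on both strands and occurred in 2 of the 9 member windows (Recql5 and Slx4), against 6.05% of the 32851 windows in the table. TTTGGCGC or TTTCCCGC, forms of the E2F motif, occurred in 1 of the 9 (Rmi1) against 1.56% of all. The Slx4 window lies inside the gene as GENCODE M21 annotates it. These are matches of letters, and 9 windows are too few to compare with the table.

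The depth was 820915 to 8095810 counts on genes per embryo (median 2952788). Ino80 was counted over the whole gene at 122 ± 8.73 CPM (counts per 1000000 counts on genes, TMM-scaled; SD, n = 7) in ctrl, 167 ± 14.8 (n = 5) in cKO-E and 187 ± 13.8 (n = 7) in dKO-E, so the sum over the gene does not show the deleted exons. Trp53 was at 43.9 ± 5.21, 39.5 ± 4.68 and 34.8 ± 4.96 CPM. Summed CPM of 12 p53 target genes was 250 to 281 in ctrl, 449 to 508 in cKO-E and 213 to 279 in dKO-E, which separates cKO-E from the other groups without overlap. Cortical progenitor and neuron markers were present in all libraries, except that Sox2 and Tubb3 were listed at 0 in every library. Each of these overlaps another annotated gene on its own strand. The groups were not balanced for sex, with 4 females and 3 males in ctrl, 4 and 1 in cKO-E, and 2 and 5 in dKO-E. They shared batches 1 and 2, apart from 1 dKO-E embryo in batch 3. The 7 dKO-E embryos came from 2 litters, the ctrl embryos from 4 and the cKO-E embryos from 5. cKO-E shared 3 litters with ctrl, which held 3 cKO-E and 5 ctrl embryos. dKO-E shared 1 litter with ctrl, which held 3 dKO-E and 2 ctrl embryos. Fold changes from a fit with litter as a block rest on such shared litters only. dKO-E and cKO-E had no litter in common, so genotype and litter cannot be told apart between them.

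In ctrl cortex, Rmi2 and Blm were the highest of the 10 per kb of merged exon length. Rmi2 was at 12.1 ± 2.57 CPM per kb and Blm at 12.0 ± 1.40 (SD, n = 7), and their difference was smaller than the spread between embryos. Wrn (7.89 ± 1.12) and Top3a (7.64 ± 0.920) came next and did not differ beyond their spread. Slx4, at 6.27 ± 0.472, was above Recql (5.10 ± 0.337), Recql5 (4.87 ± 0.386) and Gen1 (4.27 ± 0.783), and in that run neither Recql and Recql5 nor Recql5 and Gen1 differed beyond the larger SD. Mus81, at 2.30 ± 0.357, and Rmi1, at 1.17 ± 0.171, were lowest. The 4 dissolvasome genes therefore spanned nearly the whole order, from Rmi2 to Rmi1. Whether reads were counted in exons only or over whole genes was not stated, and per kb of gene span the order was different, with Slx4 highest at 1.95 and Wrn, which lies in a 151.1 kb gene, lowest at 0.396 CPM per kb.

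**Figure D1:**
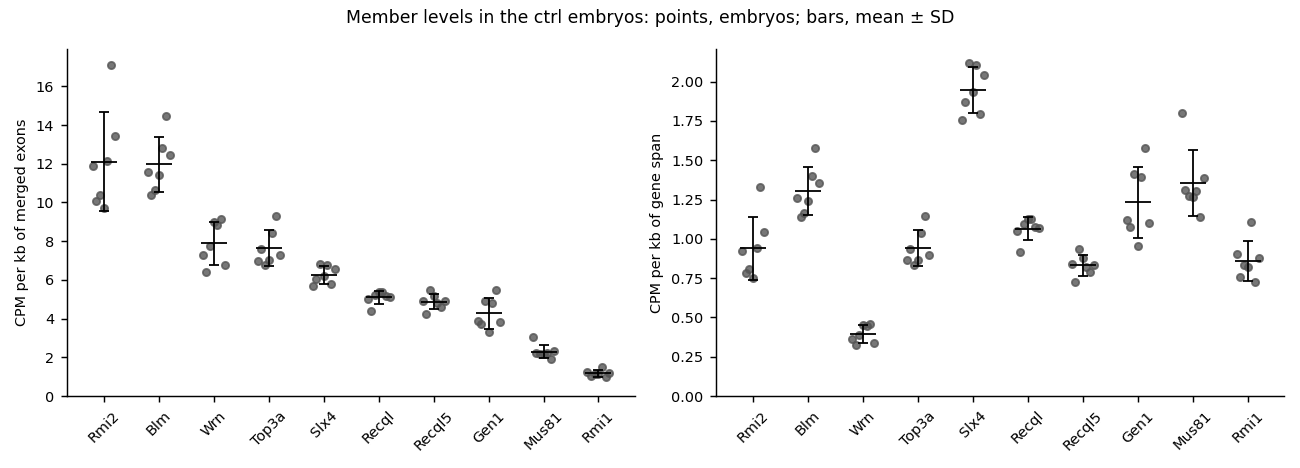
Levels of the 10 genes in the 7 ctrl embryos, as CPM per kb of merged exons (left) and per kb of gene span (right). Points are embryos and bars are the mean ± SD. Rmi2 and Blm sit highest on the exon scale and Slx4 on the span scale.

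Few of the 10 differed between genotypes. Between cKO-E and ctrl, 0 of 10 were called at a false discovery rate (FDR) of 0.001, where 3.38% of the 11660 genes tested were called by edgeR's quasi-likelihood test. DESeq2 and the likelihood-ratio test called 0 as well, and 4 of 10 had an unadjusted p under 0.05 (29.8% of all genes). At an FDR of 0.05, 3 of 10 were called, against 17.2% of all genes: Rmi2 was lower (9.88% of all genes were) and Wrn and Recql were higher (7.31%). Between dKO-E and ctrl, 0 of 10 were called at 0.001 (2.58% of 11381 genes), 0 by DESeq2 and 1, Wrn, by the likelihood-ratio test, and 4 of 10 had an unadjusted p under 0.05 (29.6%). At 0.05, Wrn was called higher (1 of 10, against 15.5% of all genes in either direction, 5.45% higher and 10% lower). Between dKO-E and cKO-E, 1 of 10, Rmi2, was called higher at 0.05, where 15% of 11746 genes were called, 5.59% higher and 9.42% lower. The groups did not overlap for 0 of 10 in cKO-E against ctrl (8.77% of all genes), 1 of 10 in dKO-E against ctrl (4.44%) and 0 of 10 between the mutants (7.09%). Read against these shares, the counts of the 10 were near the background. The median log2 fold change of the 10 was 0.04 in cKO-E (0.02 over all genes), 0.13 in dKO-E (0.01) and 0.05 between the mutants (0.02). The 95% intervals of the fold changes had a median reach of 0.18 to 0.21 on the log2 scale to either side, and the widest, 0.37 to 0.43, belonged to the genes with fewest counts.

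**Figure D2:**
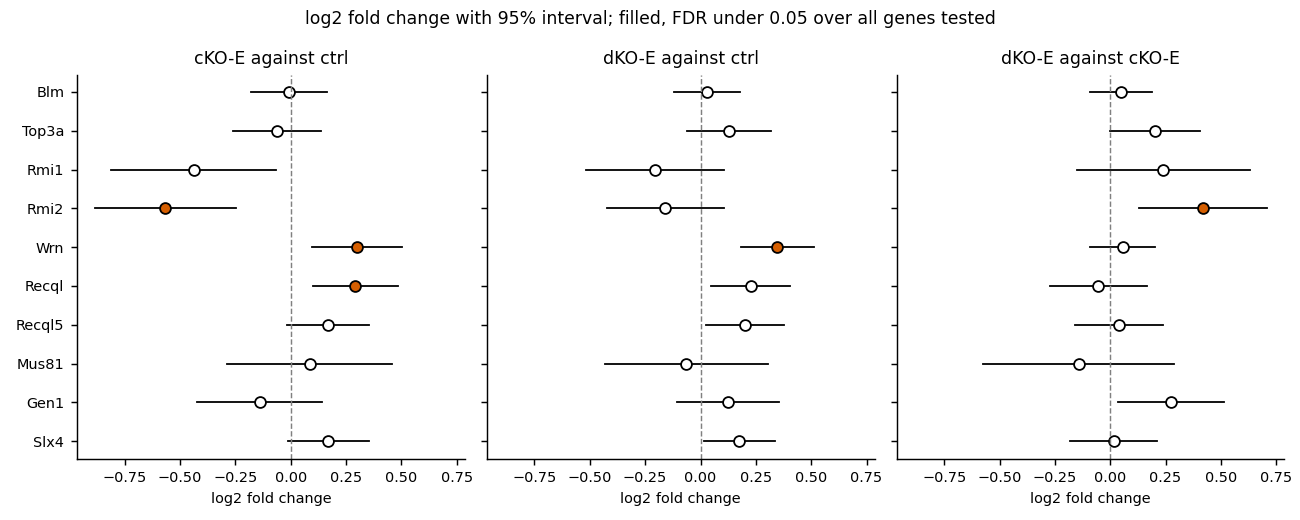
log2 fold change of each gene in the 3 comparisons (x axis), with its 95% interval as a line. Filled points have an FDR under 0.05 over all genes tested: Rmi2, Wrn and Recql in cKO-E against ctrl, Wrn in dKO-E against ctrl, and Rmi2 in dKO-E against cKO-E.

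Among the dissolvasome genes, Rmi2 was lower in cKO-E cortex and Blm, the helicase it works with, was not detectably different. Rmi2 encodes a small OB-fold protein that stabilizes the complex, and lies at chr16:10835059-10892966 on the plus strand (GRCm38). In ctrl it ranged from 43.7 to 76.9 CPM with a median of 53.5. In cKO-E it was at 44.5, 31.7, 26.8, 34.8 and 41.8 CPM in embryos A to E, and 4 of the 5 were below all 7 ctrl embryos. In dKO-E it ranged from 36.3 to 57.9 CPM with a median of 50.9, overlapping both other groups. Group means were 54.4 ± 11.6, 35.9 ± 7.25 and 48.9 ± 7.54 CPM. The log2 fold change in cKO-E was −0.57 (SE 0.15), a fold of 0.675 with a 95% interval of 0.541 to 0.842 (FDR 0.0153). In dKO-E against ctrl it was −0.16 (SE 0.13, FDR 0.432). The mutants differed directly by 0.42 (SE 0.14, FDR 0.0455), with 5 of 7 dKO-E embryos above all 5 cKO-E embryos.

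The Rmi2 difference between cKO-E and ctrl kept its direction and an FDR under 0.05 in 25 of 27 other settings. The exceptions left out cKO-E embryo B (FDR 0.0507) or C (log2 fold change −0.47, FDR 0.0558). With litter as a block it was −0.71 (FDR 0.00223), which rests on the 3 cKO-E and 5 ctrl embryos of the shared litters. cKO-E embryos A and D had no ctrl littermate, and A was the highest cKO-E embryo for Rmi2 at 44.5 CPM. Ctrl levels of Rmi2 differed between batches, at 47.3 ± 4.32 CPM in batch 1 (n = 4) and 64 ± 11.6 in batch 2 (n = 3), and within batches the log2 fold change was −0.47 (FDR 0.0416) and −0.70 (FDR 0.0376). The difference between the mutants was less firm: it missed an FDR of 0.05 in 15 of 26 settings, 8 of them among the 12 that left out 1 embryo (cKO-E B, C or D, or dKO-E B, D, E, F or G), with FDR up to 0.4 and log2 fold changes from 0.31 to 0.52.

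Blm (chr7:80454733-80535119, minus strand), mutated in Bloom syndrome, was the most counted of the 10 and its level was nearly equal in all groups, from 91.4 to 127 CPM in ctrl (median 101), 91.7 to 109 in cKO-E (median 103) and 93.9 to 112 in dKO-E (median 109). The groups overlapped throughout. Fitted log2 fold changes of Blm were −0.01 in cKO-E (95% interval −0.18 to 0.16), 0.03 in dKO-E (−0.12 to 0.18) and 0.05 between the mutants (−0.09 to 0.19), so a fold outside 0.882 to 1.14 lies beyond all 3 intervals. Top3a, the type IA topoisomerase of the complex, was at 35.1 ± 4.23 CPM in ctrl, 32.9 ± 2.30 in cKO-E and 38.5 ± 3.77 in dKO-E. Against ctrl its fold changes did not pass (FDR 0.807 and 0.37), and between the mutants 6 of 7 dKO-E embryos lay above all cKO-E embryos with a log2 fold change of 0.20 (SE 0.10, FDR 0.186). Rmi1, which bridges BLM and the topoisomerase, rested on 5 to 54 counts per library and shares 330 exonic bases with the much more counted Hnrnpk on the opposite strand. It was at 4.65, 5.38, 5.50, 6.21 and 6.45 CPM in cKO-E embryos A to E against 6.44 to 9.86 in ctrl (median 7.42), with 4 of 5 below all ctrl embryos. Its log2 fold change of −0.44 (SE 0.18) had an FDR of 0.125, and in dKO-E the value was −0.21 (SE 0.15, FDR 0.418). Both RMI genes were thus lowest on average in cKO-E, but only Rmi2 passed an FDR of 0.05, and whether the other 3 dissolvasome genes differed less than Rmi2 was not tested.

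**Figure D3:**
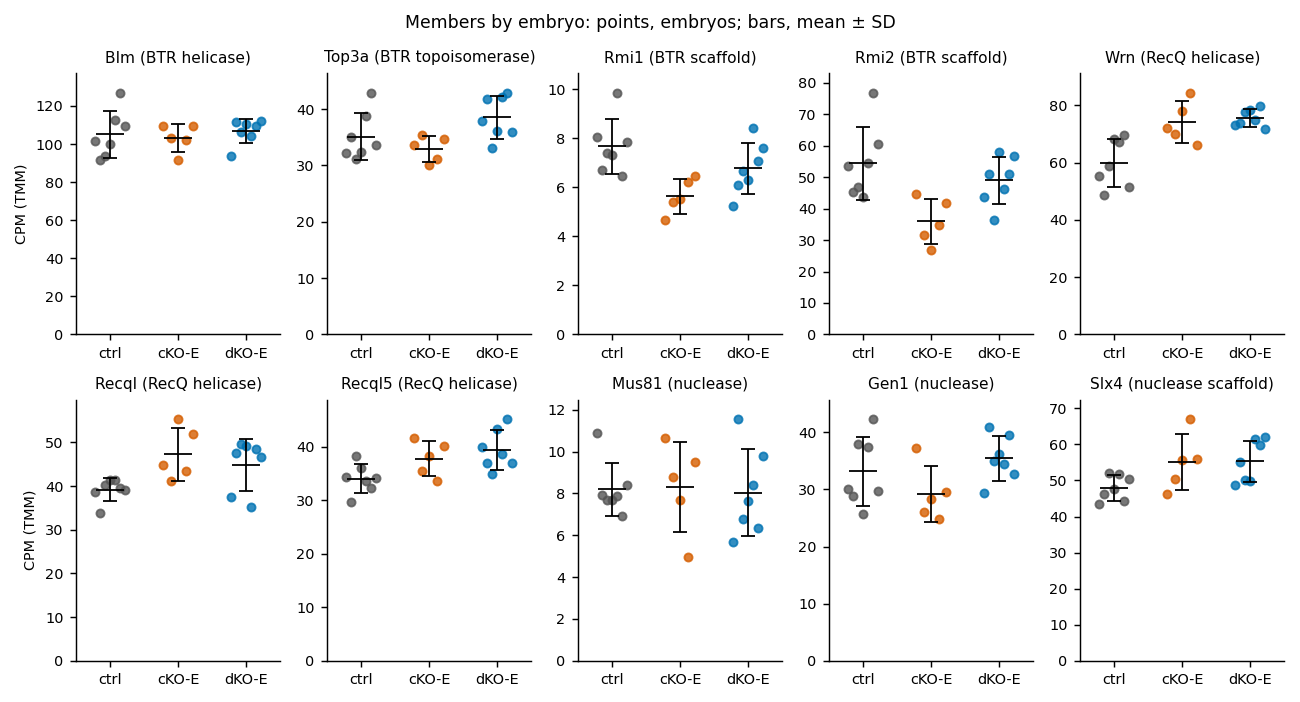
CPM of each gene (y axis, starting at 0) in ctrl, cKO-E and dKO-E embryos (x axis). Points are embryos and bars are the mean ± SD. The cKO-E points of Rmi2 lie mostly below ctrl, the dKO-E points of Wrn lie above all ctrl points, and the groups of Blm overlap.

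Of the RecQ helicases outside the dissolvasome, Wrn was higher in dKO-E cortex than in ctrl in every embryo. Wrn is mutated in Werner syndrome and its product carries an exonuclease beside the helicase, and the gene lies at chr8:33234384-33385527 on the minus strand. Its CPM ranged from 48.9 to 69.5 in ctrl (median 58.8) and from 71.8 to 79.9 in dKO-E (median 74.8), with no overlap. The log2 fold change was 0.35 (SE 0.08), with a 95% interval of 0.18 to 0.51 (FDR 0.00555). In cKO-E, Wrn was at 72.1, 70.0, 78.2, 84.5 and 66.2 CPM in embryos A to E, and 4 of the 5 were above all ctrl embryos. There the log2 fold change was 0.30 (SE 0.10, FDR 0.0397). No difference between the mutants was detectable (log2 fold change 0.06, 95% interval −0.09 to 0.20). dKO-E embryos were also the least variable for Wrn, with an SD of 3.01 CPM against 8.47 in ctrl. They came from 2 litters and the ctrl embryos from 4, so the spreads are not of like samples.

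The Wrn value in dKO-E stayed under an FDR of 0.05 in 28 of 30 settings, and missed it in batch 2 only (0.29, FDR 0.344) and in females only (0.23, FDR 0.363), where 2 dKO-E embryos remained in each. Litter 1 was the only litter with both ctrl and dKO-E embryos. There Wrn was at 48.9 and 55.3 CPM in 2 ctrl embryos and 73.0 to 77.5 in 3 dKO-E embryos. With litter as a block the fit gave 0.52 (FDR 0.0145), a value that rests on these same embryos. In cKO-E the Wrn call was lost in 12 of 27 settings, among them litter as a block (0.19, FDR 0.249) and leaving out ctrl embryo A, B, C or I or cKO-E embryo A, B, C or D (FDR up to 0.105).

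Recql (chr6:142350342-142387087, minus strand), the smallest RecQ helicase of the list, had the same direction with a weaker record. It ranged from 33.8 to 41.4 CPM in ctrl (median 39.6) and was at 44.8, 41.1, 55.4, 43.5 and 52.0 in cKO-E embryos A to E, 4 of them above all ctrl embryos. In dKO-E it ranged from 35.3 to 49.6 (median 47.7), with 5 of 7 above ctrl. The difference from ctrl on the log2 scale was 0.29 (SE 0.09, FDR 0.0339) for cKO-E and 0.23 (SE 0.09, FDR 0.0811) for dKO-E. The cKO-E call was lost in 12 of 27 settings, including litter as a block (0.30, FDR 0.0905) and leaving out ctrl embryo A or B or cKO-E embryo A, C or E. Recql shares 2895 exonic bases with Pyroxd1 on the opposite strand, which held 1106 counts over the 19 libraries against 2568 for Recql. Whether the counting used strand was not stated, so reads of the overlap cannot be assigned. Recql5, whose product binds RNA polymerase II, was at 34.0 ± 2.70 CPM in ctrl, 37.7 ± 3.27 in cKO-E and 39.4 ± 3.69 in dKO-E, with log2 fold changes of 0.17 (FDR 0.208) and 0.20 (FDR 0.115). For Recql4, a RecQ helicase of replication initiation that stood among the partner genes, the values were 10.6 ± 2.71, 10.8 ± 2.06 and 14 ± 2.57 CPM, and it was 0.45 above ctrl on the log2 scale in dKO-E (SE 0.17, FDR 0.089).

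No nuclease gene passed an FDR of 0.05 in any comparison. Mus81, the catalytic subunit of the MUS81 nuclease, rested on 4 to 57 counts per library and was at 8.20 ± 1.27, 8.32 ± 2.15 and 8.03 ± 2.07 CPM in ctrl, cKO-E and dKO-E. Its log2 fold changes were 0.09 (95% interval −0.29 to 0.46) and −0.06 (−0.43 to 0.30), so a moderate change was not detectable at this depth. Gen1, a resolvase that cuts Holliday junctions symmetrically, ranged from 25.7 to 42.3 CPM in ctrl (median 30.1), 24.8 to 37.2 in cKO-E and 29.4 to 41.0 in dKO-E. On the log2 scale it differed from ctrl by −0.14 (SE 0.13) in cKO-E and 0.13 (SE 0.11) in dKO-E, and the mutants differed by 0.28 (SE 0.11, FDR 0.118). Slx4, the scaffold that binds MUS81, SLX1 and XPF, was at 48.0 ± 3.61 CPM in ctrl, 55.1 ± 7.86 in cKO-E and 55.3 ± 5.73 in dKO-E. It was above ctrl by 0.17 on the log2 scale in cKO-E (SE 0.09, FDR 0.206) and by 0.18 in dKO-E (SE 0.08, FDR 0.125), with 3 of 5 and 4 of 7 embryos above all ctrl embryos.

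The proteins these 10 work with were followed as a list of 19 partner genes, all tested. At an FDR of 0.001, edgeR called 0 of 19 against ctrl in either mutant, with an unadjusted p under 0.05 in 5 for cKO-E and 6 for dKO-E (29.8% and 29.6% of all genes). At 0.05, 2 were lower in cKO-E and 0 higher (9.88% and 7.31% of all genes), and in dKO-E 1 was lower and 2 were higher (10% and 5.45%), which is near the background. Ercc4, which encodes the XPF nuclease docked on SLX4, was lower in cKO-E, at 17.2 ± 2.88 against 26.1 ± 3.71 CPM in ctrl (log2 fold change −0.59, SE 0.13, FDR 0.00516), and lower in dKO-E at 18.3 ± 3.95 CPM (−0.51, SE 0.13, FDR 0.00929). Fancm, the translocase that recruits the dissolvasome to stalled forks, was lower in cKO-E (−0.28, SE 0.09, FDR 0.0345). Eme1, the partner subunit of MUS81, was at 26.7 ± 4.42 CPM in dKO-E against 19.6 ± 2.68 in ctrl (0.43, SE 0.12, FDR 0.0181). Rtel1, a helicase that disassembles D-loops, was also higher in dKO-E (0.42, SE 0.11, FDR 0.0128). Between the mutants, Brip1 (0.27, FDR 0.0176) and Topbp1 (0.22, FDR 0.0498) were higher in dKO-E, and 15 of 19 partner genes had a fold change above 0 (54.1% of all genes), with a median of 0.22 against 0.02 over all genes.

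Homologous recombination genes that act before junctions form were followed as a list of 27. Against ctrl edgeR called 0 of 27 at 0.001, with an unadjusted p under 0.05 in 7 for cKO-E and 8 for dKO-E (29.8% and 29.6% of all genes). At 0.05, Xrcc2 (log2 fold change −0.42, SE 0.10, FDR 0.00844) and Spidr (−0.36, SE 0.10, FDR 0.0185) were lower in cKO-E (2 of 27, against 9.88% of all genes). SPIDR is a scaffold protein that binds BLM. In dKO-E, Rad51b (0.39, SE 0.08, FDR 0.00291), Zgrf1 (0.40, SE 0.10, FDR 0.0099) and Parpbp (0.25, SE 0.08, FDR 0.0306) were higher than in ctrl (3 of 27, against 5.45%). Between the mutants 7 of 27 were higher in dKO-E and 0 lower (5.59% and 9.42% of all genes), led by Parpbp, at 73.8 ± 4.71 against 53.7 ± 9.82 CPM (0.51, SE 0.09, FDR 0.000927). The others were Mcm9 (0.42), Rad51b (0.39), Zgrf1 (0.40), Rad54b (0.37), Rad54l (0.34) and Xrcc2 (0.37). The median over the 27 was −0.14 in cKO-E, 0.14 in dKO-E and 0.23 between the mutants, and for the 10 genes of the main list it was 0.04, 0.13 and 0.05.

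**Figure D4:**
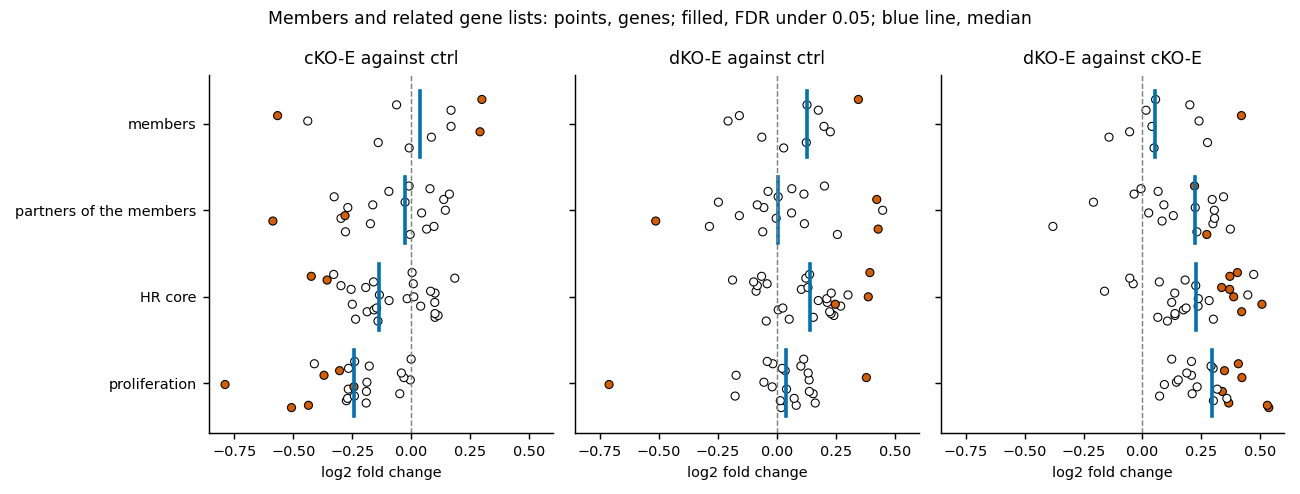
log2 fold change (x axis) of each gene in the main list of 10 (members), its 19 partner genes, 27 homologous recombination (HR) genes and 22 proliferation genes (rows) in the 3 comparisons. Filled points have an FDR under 0.05 and blue lines mark the median, which for the proliferation genes was −0.24 in cKO-E against ctrl and 0.30 in dKO-E against cKO-E.

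Part of the markers of dividing cells were lower in cKO-E against ctrl, and part rose from cKO-E to dKO-E. Of 22 proliferation genes all 22 had a fold change below 0 in cKO-E, 6 of them at an FDR of 0.05 (9.88% of all genes) and 1, Mcm2, at 0.001 (log2 fold change −0.79, FDR 0.000434). In dKO-E against ctrl 15 of 22 were above 0 with a median of 0.04, where Rmi2 was at −0.16. Between the mutants all 22 were above 0 and 7 were called (5.59% of all genes), among them Aurka (0.54, FDR 0.00954) and Aurkb (0.53, FDR 0.00454). Their summed CPM was 2582 to 3447 in ctrl, 2108 to 2782 in cKO-E and 2422 to 3494 in dKO-E. In bulk tissue, fewer cells of a type and less RNA per cell cannot be told apart. Over the 19 embryos the log2 CPM of Rmi2 correlated with the log2 sum at Pearson r = 0.80 (Spearman rho 0.85), that of Blm at 0.72 (0.73), Gen1 at 0.60 (0.68), Top3a at 0.59 (0.62) and Rmi1 at 0.56 (0.53). For Wrn, Recql, Recql5 and Slx4, r lay between −0.16 and −0.01, and for Mus81 it was 0.30. Without the 2 embryos farthest from the median sum, r was 0.78 for Rmi2, 0.66 for Blm and 0.42 for Top3a. As deviations from the group means, r was 0.68 for Rmi2, 0.84 for Blm, 0.49 for Top3a, 0.47 for Gen1 and 0.315 for Rmi1. On that basis it was 0.42 for Mus81, 0.29 for Recql, 0.22 for Slx4, 0.07 for Wrn and −0.13 for Recql5. Within the 7 ctrl embryos alone, r was 0.92 for Rmi2, 0.95 for Blm, 0.525 for Wrn and 0.48 for Recql. There it was 0.16 for Rmi1, 0.02 for Slx4 and −0.05 for Recql5. The contrast between these genes over 19 embryos thus depends in part on differences between the groups. With the log2 summed CPM of 8 cortical neuron markers, r was −0.75 for Top3a, −0.66 for Blm, −0.63 for Gen1 and −0.63 for Rmi2. For the other members it lay between −0.29 and −0.12, with Rmi1 at −0.18. Which of the sums these genes follow was not tested. These are descriptions over 19 libraries that share their scaling and, in part, litters.

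Set against the same sum, the groups lined up differently. Per 1000 CPM of proliferation genes, Rmi2 was at 18.4 ± 2.15 CPM in ctrl, 14.8 ± 2.57 in cKO-E and 16.6 ± 2.30 in dKO-E, so the cKO-E mean was still the lowest but the ranges overlapped (16.2 to 22.3 and 12.6 to 18.9). Blm was at 35.6 ± 1.25 in ctrl and 42.6 ± 2.68 in cKO-E, and on this scale every cKO-E embryo (39.3 to 46.5) was above every ctrl embryo (33.3 to 37). Its dKO-E value was 36.4 ± 2.67. Wrn was at 20.4 ± 2.60, 30.9 ± 5.38 and 25.9 ± 3.40. Between cKO-E and ctrl, Recql (16.3 to 26.3 against 11.5 to 15.3) and Recql5 (14 to 18.1 against 9.35 to 13.6) did not overlap either. Nor did Slx4 (19.6 to 27.9 against 12.8 to 18.6). For Wrn, Top3a, Rmi1, Mus81 and Gen1 the ranges overlapped. The median sum was lower in cKO-E than in ctrl, so a gene at equal CPM is higher on this scale. The share of all genes without overlap on this scale was not computed, so these separations are not read as a result about these genes. On CPM itself, 0 of the 10 were without overlap between cKO-E and ctrl.

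Part of the progenitor markers were lower in cKO-E. All 4 intermediate progenitor markers had a fold change below 0, where 53.4% of all genes were above 0. At an FDR of 0.05, 2 were lower (9.88% of all genes): Eomes (−0.32, FDR 0.0165) and Neurog2 (−0.39, FDR 0.00557). Their summed CPM was 319 to 388 in ctrl, 248 to 336 in cKO-E and 259 to 393 in dKO-E. The summed CPM of 8 apical progenitor markers, with Sox2 at 0, was 1080 to 1220, 954 to 1230 and 992 to 1160. Of the 7 tested, Pax6 (−0.35, FDR 0.0211), Hes1 (−0.50, FDR 0.017) and Nes (−0.34, FDR 0.00943) were lower in cKO-E (9.88% of all genes). Fabp7 was higher (0.56, FDR 0.000182, 7.31% of all genes). Hes5 (−0.39), Vim (−0.11) and Slc1a3 (0.15) did not pass 0.05. Summed CPM of 8 microglial markers was 4.93 to 12.9 in ctrl, 27.8 to 37.3 in cKO-E and 5.89 to 9.94 in dKO-E, and that of 6 interneuron markers was 9.21 to 84.1, 64.2 to 119 and 29.0 to 69.7. Of 8 cortical neuron markers, with Tubb3 at 0, the sum was 2750 to 4080 in ctrl, 3360 to 4040 in cKO-E and 2280 to 3220 in dKO-E. Of the 7 tested, 1 was higher at 0.05 in cKO-E, Stmn2 (0.49, FDR 0.00237, 7.31% of all genes), and 0 were lower. In dKO-E against ctrl 2 were lower (10% of all genes), among them Map2 (−0.38, FDR 0.000696), and 0 were higher. The part of the progenitor, proliferation and other marker lists in the values of Rmi2, Wrn and Recql was not tested. Ctrl embryo H, with the highest proliferation sum of its group, was the highest ctrl embryo for 5 of the 10 genes, and without it the Rmi2 log2 fold change in cKO-E was −0.47 (FDR 0.0176).

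**Figure D5:**
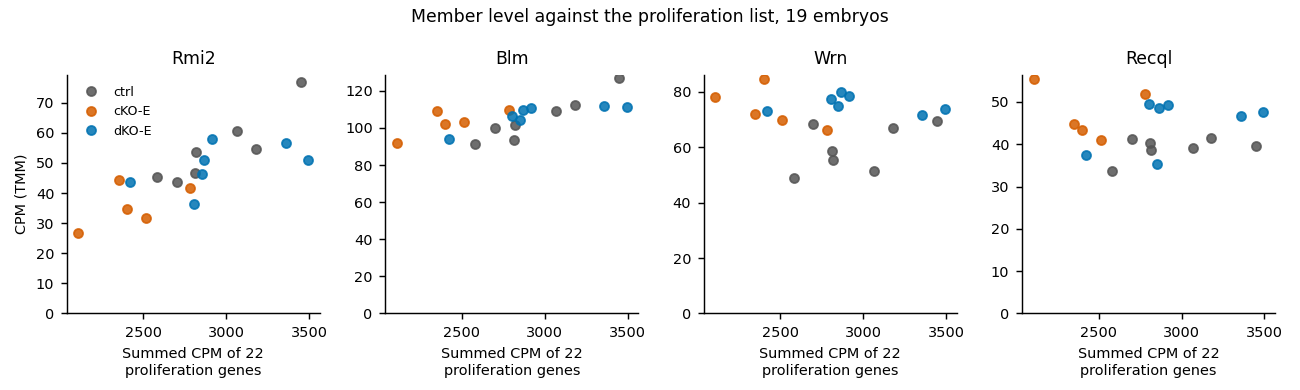
CPM of Rmi2, Blm, Wrn and Recql (y axis) against the summed CPM of 22 proliferation genes (x axis) in 19 embryos, coloured by group. Over all 19 embryos, Rmi2 and Blm rise along the sum (r = 0.80 and 0.72) and Wrn and Recql do not (r = −0.15 and −0.08). Within the 7 ctrl embryos, r was 0.92 and 0.95 for Rmi2 and Blm, and 0.525 and 0.48 for Wrn and Recql.

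Between the 10 genes themselves, the 45 pairwise correlations of log2 CPM over 19 embryos ranged from −0.35 (Wrn and Mus81) to 0.64 (Blm and Rmi2), with a median of 0.16. Blm, Top3a, Rmi2 and Gen1 were positively correlated in every pair, from 0.54 to 0.64, and Rmi1 was at 0.45 with Rmi2 and at 0.16 to 0.17 with Top3a and Blm. Over 12048 genes, the closest pattern to Blm was that of Trip13 (r = 0.85) and then Stat5b (0.83), to Rmi2 Tmem243 and Rfc1 (0.88 each), to Top3a Hus1 (0.84) and Ppp2r5d (0.82), and to Gen1 Mob1a (0.83) and Mtx1 (0.80). For Wrn they were Uggt1 (0.87) and Spata5 (0.86), for Recql Cspg5 (0.80) and Rev1 (0.75), for Recql5 Gm15892 (0.81) and Pnpla7 (0.78), for Slx4 Gabra3 (0.84) and Tmem43 (0.83), for Rmi1 Scmh1 (0.82) and Kctd20 (0.81), and for Mus81 Hnrnpul2 (0.80) and Plec (0.78). The highest of 12048 correlations is high by selection, and no p is attached.

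In GENCODE M21, 5 of the 10 genes start head to head with another gene, at 798 bp or less between starts and with overlapping starts included. The share of all genes with such a neighbour was not counted. These neighbours were listed after the values of the 10 were known. Golt1b starts 134 bp from Recql, across the bases printed above, and was at 40 ± 2.05 CPM in ctrl, 46.3 ± 6.40 in cKO-E and 47 ± 7.07 in dKO-E. Against ctrl it differed by 0.20 (FDR 0.151) and 0.20 (FDR 0.122) on the log2 scale, beside 0.29 and 0.23 for Recql. Smc6, a subunit of the SMC5/6 complex, starts 85 bp from Gen1 and its fold changes were −0.05 (FDR 0.621) and 0.05 (FDR 0.638). Purg, 798 bp from Wrn, was at 156 ± 16 CPM in ctrl and 178 ± 15.9 in cKO-E (0.17, FDR 0.145) and at 173 ± 16.8 in dKO-E (0.13, FDR 0.241). Smcr8, 159 bp from Top3a, had values of −0.13 (FDR 0.607) and 0.06 (FDR 0.682), and Sap30bp, which overlaps the first exon of Recql5, −0.02 (FDR 0.92) and 0.06 (FDR 0.683). None of these 5 neighbours passed an FDR of 0.05 in any comparison.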

How the data were processed

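Counts were deposited by the authors as whole numbers per gene, without normalization, 1 file per embryo. Per the labels and the paper's methods, the authors depleted ribosomal RNA, made ClickSeq libraries, trimmed reads with cutadapt 1.13, aligned them to mm10 with STAR 2.5.2a, collapsed reads sharing a molecular identifier with UMI-tools 0.5.3 and counted with HTSeq 0.6.1p1. The feature type and strand setting of the counting are not given in the sources used here. Rows that name no gene held 23.3% to 31.8% of each file and were left out. Of 51912 identifiers, 51719 were found in GENCODE M21 without version.

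Embryos were grouped by labelled genotype. Each comparison was a fit of its own without covariates in R 4.3.3, with edgeR 4.0.16: filterByExpr at a minimum count of 10, TMM factors, the quasi-likelihood test and Benjamini-Hochberg adjustment over all genes tested. Calls against ctrl used an FDR of 0.001, with 0.05 given beside it, and 0.05 between the mutants. The study also used 0.001, but with likelihood-ratio tests, which are among the alternatives here. The SE is the log2 fold change over the square root of F, and intervals are 95%. For some genes, among them Top3a and Rmi1 in cKO-E, the p-value of the test was larger than this SE implies. Their intervals are therefore narrower than their FDR would give. CPM used TMM factors over 19 libraries, and log2 CPM a prior count of 2. The test was tried on simulated counts first. A count of 3 corresponded to 0.37 to 3.73 CPM, which covers counting error only. Alternatives were edgeR's likelihood-ratio test, DESeq2 1.42.0, other filters and scalings, batch, sex, litter or replicate letter in the fit, subsets by batch and sex, and leaving out each embryo. Embryos with the same letter came from different litters in part, and their deviations from the group means were not correlated throughout. p-values measure the spread between embryos and, without a litter block, treat littermates as independent.

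The members and lists were chosen with earlier results of these data known. Named were all 10 members; of partner and recombination lists, called genes and the 3 smallest p per comparison; of the other lists, up to 3 called genes per comparison; Ino80 and Trp53; and the 2 most similar genes per member. Some genes under the rule are left out. Recql4, the head-to-head neighbours and the progenitor markers other than Fabp7 lie outside this rule and were chosen after their values were seen.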

Additional observations from a re-analysis of the deposited data

Results flagged for a closer look

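Of 30 groups of embryos examined (10 genes in 3 groups), 3 held an embryo whose gap to its nearest neighbour was large for the range of the group, and chance gives about 1 in 20. Blm in dKO-E embryo A was lowest at 93.9 CPM, with the next embryo at 104. Recql in ctrl embryo B was lowest at 33.8 CPM, with the next at 38.7. Mus81 in ctrl embryo A was highest at 10.9 CPM, with the next at 8.40.

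Rmi2 differed in the direct comparison of dKO-E with cKO-E, which shared no litter, so litter and genotype cannot be told apart. It was 0.42 higher in dKO-E on the log2 scale (SE 0.14, FDR 0.0455 in edgeR's quasi-likelihood test, 5 of 7 dKO-E embryos above all cKO-E embryos). The call was lost in 8 of the 12 fits that left out 1 embryo and in 7 of 14 other settings, with FDR from 0.00509 to 0.4.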

How the results depend on the processing

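Under other settings, 824 fold changes of the 10 genes were recomputed. Of these, 740 kept their direction and side of the threshold, 43 lost a call and 8 gained one. A further 32, whose main value was within 1 SE of 0, crossed 0 to values between −0.08 and 0.10. The remaining 1 reversed (Gen1 in dKO-E against ctrl, −0.0289 in females only, with 2 dKO-E embryos). Against ctrl the count of members called, 0 at an FDR of 0.001, was 3 in cKO-E at an FDR of 0.05 and 1 with all genes of at least 1 count (Rmi2), and 1 in dKO-E (Wrn) at 0.01, at 0.05 and by the likelihood-ratio test. Between the mutants the count of 1 (Rmi2) became 0 at an FDR of 0.01 or 0.001, with at least 10 counts in every embryo, with upper quartile factors, with all 19 embryos in 1 fit, in batch 1, in batch 2 and in females. It ranged from 0 to 2 when 1 embryo was left out. With the replicate letter as a block, it was 0 (Rmi2 0.39, FDR 0.0634), and the counts against ctrl at 0.001 were 0. The letters were not taken to pair embryos. Same-letter embryos shared a litter in part only, and correlations of their deviations ranged from −0.41 to 0.18. Littermates from cKO-E and ctrl correlated at a median of 0.24 (4 of 5 pairs above 0.1), against −0.02 for other pairs. For dKO-E and ctrl littermates the median was 0.02 over 6 pairs. With litter as a block in cKO-E, Wrn (FDR 0.249) and Recql (FDR 0.0905) missed 0.05, and Rmi2 (FDR 0.00223) did not. The cause of these changes was not tested.

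With total counts the median of all genes in dKO-E against ctrl moved to 0.10, and Recql, Recql5 and Slx4 passed 0.05. A filter of 10 counts in every embryo dropped Rmi1 and Mus81. A fit in males could not be made for cKO-E, which had 1 male, nor a litter block between the mutants. With log2 intervals reaching 0.14 to 0.43, small differences were not detectable.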
